A study of Drosophila melanogaster with 12 samples.

Results

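Gene expression in the dissected midgut was set against that of the whole fly on an unmodified diet, as a tissue profile of the adult female midgut of Drosophila melanogaster. The comparison uses the 3 arrays titled midgut unmodified and the 3 titled whole fly unmodified, 6 of the 12 arrays of the series, and was chosen by these titles. Midgut samples were pools of 10 dissected midguts and whole fly samples were pools of 5 flies. All flies were females of genotype w1118, a laboratory strain with white eyes, 10 days old, reared on cornmeal food until eclosion and then kept for 10 days at 25 °C on holidic food, which is a fully defined synthetic diet. No further mutation, transgene or drug is named for either group, and the other 6 arrays differ only in that their food was enriched with glucose (100 g/L). Since separate cultures for the 3 samples of each group are not stated, the p-values cover the spread between samples alone, which may be technical.

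The midgut is the part of the fly intestine that digests food and takes up nutrients. Its lining is a single layer of enterocytes, which secrete enzymes and absorb their products, with enteroendocrine cells that release peptide hormones and progenitor cells that replace both. A peritrophic matrix of chitin and mucins lies between the food and the cells, a middle stretch is acidified by copper cells, and muscle, tracheae and nerve endings cover the outside. A whole fly holds its own midgut, so every difference below sets one organ against a mixture that includes it. In pooled tissue, fewer cells of a type and less RNA per cell cannot be told apart.

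Each array gave 1 log2 signal for each of 18769 probe sets, and 11982 genes could be named, each represented by its probe set with the highest mean. Array medians were 3.447, 3.458 and 3.468 in midgut, against 4.098, 4.044 and 4.074 in whole fly, and arrays correlated at 0.9924 to 0.9939 within midgut, 0.9887 to 0.9937 within whole fly and 0.8361 to 0.8857 between them. As a measure of the low end of the scale, 38 genes made in testis or male accessory gland, which these females lack, had array medians of 2.33 to 2.38 in midgut and 2.27 to 2.37 in whole fly. The file holds no detection calls, no probe set was left out for a low signal, and differences are compressed near that level. Both groups held 1 array that stood apart from its replicates. Whole fly replicate 2 was the lowest whole fly array for 786 of the 1002 genes at least 2-fold higher in midgut, by a median of -0.48 against the other whole flies, whereas it was the lowest for 32.0% of all named genes. Midgut replicate 1 was the highest midgut array for 40 of 44 measured germline and cell division genes, by a median of 0.53. It was the highest for 34.5% of all named genes and for 56.0% of the 3309 genes at least 2-fold lower in midgut. Whole fly replicate 2 was the highest whole fly array for 62.5% of those 3309 genes. Without whole fly replicate 2, limma called 2475 probe sets higher in midgut and 1094 at least 2-fold higher, against 2714 and 1150 with it.

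Among calls that held under every scaling, more genes were lower in midgut than higher. On the values as deposited, limma called 2714 of 18769 probe sets higher in midgut and 7504 lower (Benjamini-Hochberg adjusted p under 0.05), together 54.4%. The split depends on how the arrays are scaled, since higher probe sets made up 26.6% of the calls as deposited, 69.1% after each array was centred on its median, 53.5% after quantile normalization and 17.7% after centring on the hybridisation controls. The median difference over all probe sets was -0.14 as deposited and 0.48, 0.07 and -0.27 under those scalings. In the rest of the text a gene is therefore called higher or lower only where the same call in the same direction was made on the deposited values and under all 3 other scalings. Under centring on the hybridisation controls, genes shared a standard error of 0.269, so that scaling acts as a cut on size. The smallest increase called under every scaling was 0.75, and clearly smaller ones could not be called however closely their arrays lay. Small decreases were limited too, since median centring raised every difference, that of Yp1 from -0.62 to -0.01. Of the genes named below, pnr was called lower at -0.93, whereas RpS19b at -0.89 was not. A gene not called under every scaling may thus still differ. By that rule 1211 of 11982 named genes (10.1%) were higher in midgut and 3379 (28.2%) were lower, and 1002 (8.36%) were at least 2-fold higher and 3309 (27.6%) at least 2-fold lower. The median difference over all named genes was -0.33 on the log2 scale, and these values are the background for the counts of each gene group below. The 2-fold cut was applied to the deposited differences, so the size of the excess of lower genes rests on that scaling. Median centring alone gave 2415 probe sets called at least 2-fold higher and 3047 lower. Quantile normalization alone gave 2383 and 2653.

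**Figure D1:**
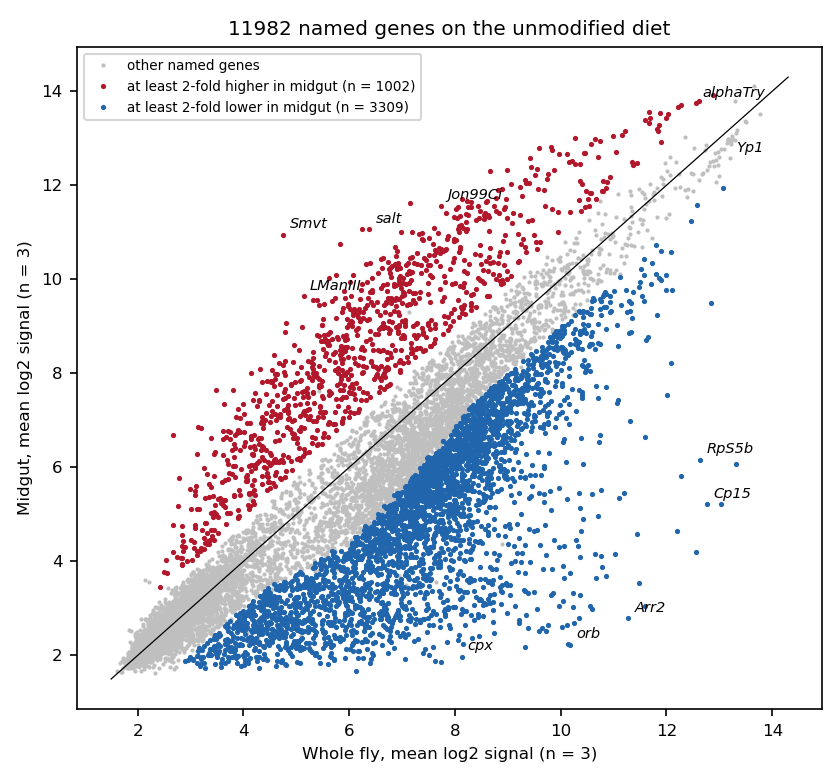
Mean log2 signal of each named gene in midgut (vertical axis, 3 arrays) against whole fly (horizontal axis, 3 arrays). Red points are the 1002 genes at least 2-fold higher in midgut and blue points the 3309 at least 2-fold lower, each called under all 4 scalings, and grey points are the rest. Blue points reach much farther from the diagonal than red points.

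Differences reached further downwards than upwards. Among probe sets called under every scaling, 19 were higher and 362 were lower by 4 or more on the log2 scale, and 1 was higher and 67 were lower by 6 or more. The largest decrease over all probe sets, -9.86, belonged to a probe set with no gene listed. The size of the increases varied with the whole fly level, on a scale whose highest value was 14.12. Genes with a whole fly mean from 4 to 6 that were higher in midgut had a median difference of 2.07 and a largest one of 6.19 (396 genes), whereas those with a whole fly mean of 12 or more had a median of 1.04 and a largest one of 1.49 (11 genes). At the dim end, with a whole fly mean below 4, the median was 1.35 and the largest 4.16 (184 genes).

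The largest increase belonged to Smvt, a transporter of the sodium-coupled multivitamin type. Its log2 signal was 10.56, 10.86 and 11.42 in the midgut arrays, against 5.24, 4.06 and 4.98 in the whole fly arrays. The means were 10.95 ± 0.44 in midgut and 4.76 ± 0.62 in whole fly (SD, n = 3 each), a difference of 6.19 with a standard error of 0.32 and a limma adjusted p of 8.76e-07, or 73-fold. The groups did not overlap, as held for 72.3% of all named genes, as for salt, a sodium-dependent solute transporter gene and the next among the genes with a name other than a number, with a difference of 4.68 (10.66, 11.12 and 11.41 in midgut, 6.73, 5.89 and 6.52 in whole fly). After it among those genes came LManIII, a lysosomal alpha-mannosidase gene, with 10.96, 9.28 and 8.70 in midgut and 5.64, 3.71 and 6.07 in whole fly. Its difference of 4.50 had a standard error of 0.70, since both groups spread over more than 2 log2 units without overlapping. Srg2 differed by 4.09. The other 11 of the 15 largest increases carry only a number, with differences of 4.02 to 4.92. They are CG10553, CG10560, CG8834, CG6125, CG6602, CG31446, CG5697, CG5246, CG13325, CG5770 and CG5767. Genes known only by a CG or CR number made up 54.9% of the 1002 genes at least 2-fold higher in midgut (550), 32.4% of the 3309 at least 2-fold lower (1072) and 43.6% of all named genes (5219).

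Genes for enzymes that digest protein were higher in midgut in nearly all cases. Of 13 measured trypsin genes, 11 were higher in midgut and none was lower, with a median difference of 2.59. The largest differences were those of kappaTry (3.43), etaTry (3.04), Ser6 (3.01), zetaTry (2.99), lambdaTry (2.94) and iotaTry (2.76). Jonah genes encode secreted serine proteases related to chymotrypsin, and all 14 measured were higher, with a median of 2.27. Jon99Ci led them, with 11.79, 11.85 and 11.06 in midgut and 9.22, 7.19 and 6.78 in whole fly, a difference of 3.83 (SE 0.56, limma adjusted p = 3.96e-04). It was followed by Jon25Bii (2.74), Jon25Bi (2.70), Jon66Ci (2.57), Jon44E (2.50) and Jon66Cii (2.45), while the enterocyte marker Jon65Aiii differed by 1.18. The bright trypsin gene betaTry had 13.92, 13.94 and 13.91 in midgut and 13.26, 12.60 and 12.78 in whole fly, and alphaTry differed by 1.20. Those differences, 1.04 for betaTry, lie at the bright end of the scale, where differences were small. Near-identical copies within these families may share probes, so members of one family are not independent.

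Enzymes that split sugars were also mostly higher, with exceptions that went far the other way. Amylase and maltase genes were higher in 10 of 12 measured and lower in 2, with a median of 2.05. The largest increases were Mal-A3 (3.21), Mal-A2 (3.01), Mal-A7 (2.75), Mal-A4 (2.64), Mal-A6 (2.40) and Amyrel (2.20), and the maltase gene Mal-A1 differed by 1.91. Mal-A5 had 5.04, 4.77 and 4.09 in midgut and 8.58, 8.63 and 8.65 in whole fly, a difference of -3.99, and Mal-B2 differed by -1.55. Lysosomal alpha-mannosidases, which trim mannose from glycoproteins, were higher in 5 of 6, with LManVI (3.83), LManV (3.62), LManI (3.08) and LManII (1.58) next to LManIII. LManIV had 5.15, 2.85 and 2.67 in midgut and 2.10, 2.39 and 2.18 in whole fly, a difference of 1.34 that was not called under every scaling and was 0.54 without midgut replicate 1 (limma adjusted p = 0.0121). Without whole fly replicate 2, the array low for midgut genes, the median of the 6 was 2.75, against 3.35 with it.

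Lipid digestion and sterol handling split by gene. In the list of lipases and sterol carriers, 11 of 19 measured genes were higher and none was lower, with a median of 1.4. Npc2 proteins bind sterols, and 4 of the 8 family members were higher, namely Npc2c (3.62), Npc2d (3.35), Npc2f (3.23) and Npc2e (2.46). The other 4, Npc2a, Npc2b, Npc2g and Npc2h, had differences of -0.87 to -0.48 (named after their values were seen). Each was called lower as deposited but not under every scaling. Among lipase-family genes, CG8093 (2.90) and CG6283 (2.71) led, and mag, which encodes an intestinal lipase, differed by 1.4. All 3 measured lysozyme genes, whose products cut bacterial cell walls, were higher, with a median of 1.45. LysX had 9.18, 8.0 and 11.11 in midgut and 4.56, 5.49 and 7.87 in whole fly, a difference of 3.46 with a wide standard error of 0.94 (limma adjusted p = 0.0131), beside LysS (1.45) and LysP (0.90). LysX lost its call without whole fly replicate 1 (2.75, limma adjusted p = 0.0558), and LysP lost its call without whole fly replicate 1 or 2 or midgut replicate 1 or 2 (limma adjusted p of 0.0725 to 0.151). With a trended robust prior both lost their calls (limma adjusted p of 0.0886 for LysX and 0.0747 for LysP).

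**Figure D2:**
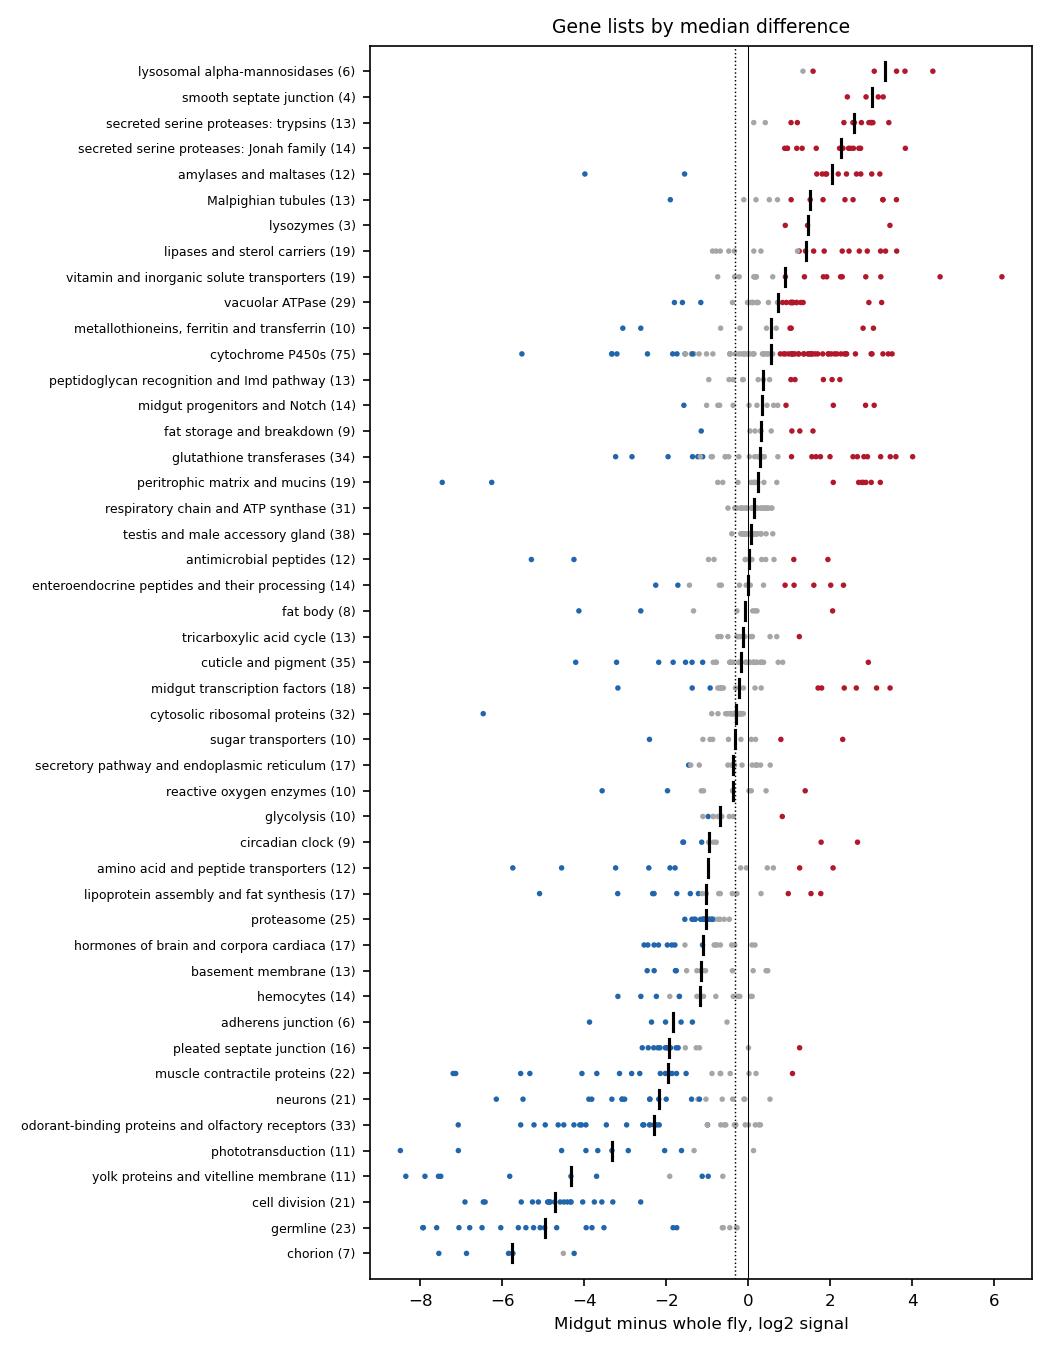
Difference of midgut minus whole fly in log2 signal for every measured member of 47 gene lists (points, number of members in brackets), sorted by the list's median (black tick). Red and blue points are called higher or lower under all 4 scalings, grey points are not, and the dotted line is the median of all named genes, -0.33. Digestive enzymes and the smooth septate junction lie at the top, and chorion, germline and cell division genes at the bottom.

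The barrier genes of the gut separated by junction type. The 4 genes of the smooth septate junction, the form that seals endodermal epithelia, were all higher, with Tsp2A (3.29), Ssk (3.17), hoka (2.87) and mesh (2.42) and a median of 3.02. Tsp2A, a tetraspanin, had 10.26, 10.35 and 10.74 in midgut and 7.25, 6.63 and 7.59 in whole fly (SE 0.24, limma adjusted p = 5.21e-06), with the lowest whole fly value in replicate 2. The pleated septate junction of ectodermal epithelia and glia went the other way, with 11 of 16 measured genes lower and 1 higher, and a median of -1.93. Cont (-2.59), crok (-2.44), Lac (-2.31), nrv2 (-2.20), cold (-2.16) and Nrx-IV (-2.02) were the largest decreases, and l(2)gl, a regulator of cell polarity, was higher by 1.25. Adherens junction genes, with a median of -1.83, were lower in 5 of 6, namely cno (-3.87), ed (-2.36), p120ctn (-2.02), the E-cadherin shg (-1.64) and alpha-Cat (-1.36), while baz differed by -0.52 as deposited and by 0.62 after quantile normalization. In the list of peritrophic matrix and mucin genes, 7 of 19 were higher and 2 lower, with a median of 0.23. The median level of the list in midgut was 3.33, so many members were dim there. Muc68E (3.22), Mur18B (3.0), Mur29B (2.87), Peritrophin-15a (2.81), Peritrophin-15b (2.77) and Muc11A (2.69) were the largest increases. By contrast Muc68D had 2.38, 3.36 and 2.24 in midgut and 10.98, 8.72 and 10.67 in whole fly, a difference of -7.47, and Muc12Ea differed by -6.26. Their midgut means, 2.66 and 2.48, lie near the level of the male genes. Of the brush border list only Cad87A, a cadherin gene, was measured, and it differed by -4.98, or by -2.58 when its probe sets were averaged.

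**Figure D3:**
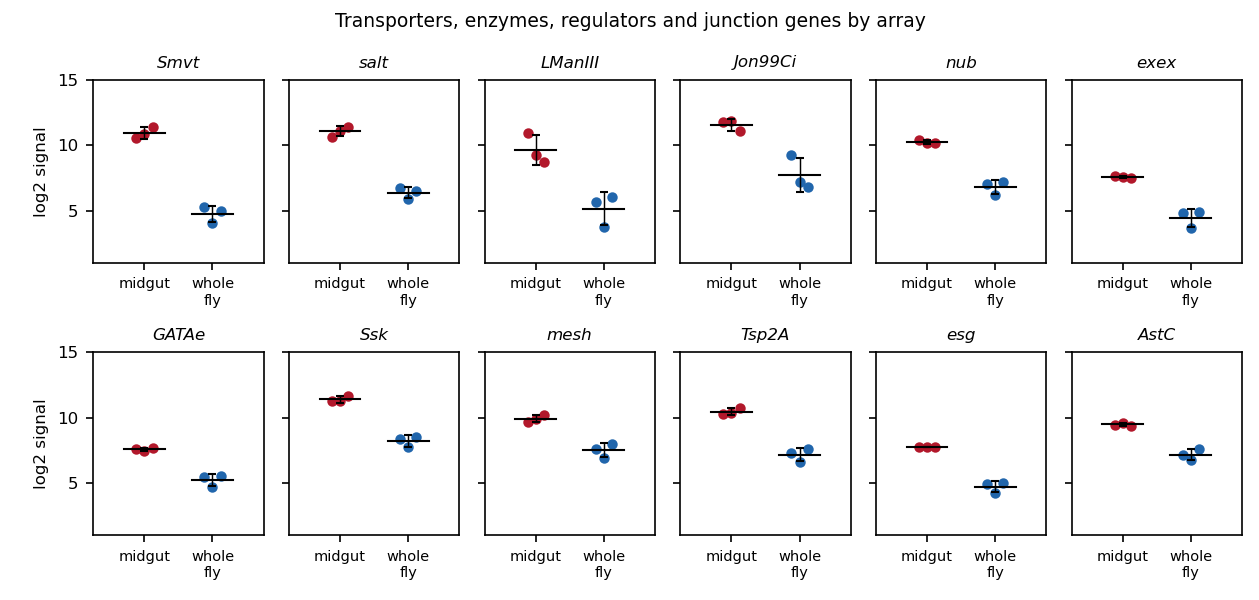
Log2 signal of 12 genes in each midgut array (left, red) and each whole fly array (right, blue), with the mean and SD of the 3 arrays as bars. In all 12 panels the lowest midgut array lies above the highest whole fly array, and the middle whole fly point, replicate 2, is the lowest of its group in 11 panels.

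Genes for nutrient uptake were called in both directions. Transporters of vitamins and inorganic solutes were higher in 10 of 19 and lower in none, with a median of 0.91. After Smvt and salt came MFS1 (3.24), the sodium and phosphate cotransporter NaPi-T (2.87), the zinc importer Zip42C.2 (2.29) and the sodium and proton exchanger Nha2 (2.25). In the list of sugar transporters, which may not hold every such gene, 2 of 10 were higher, MFS3 (2.31) and sut2 (0.80), and 1 was lower, sut1 (-2.41). Their median was -0.33 as deposited, and its sign changed under median centring and quantile normalization. Amino acid and peptide transporters were higher in 2 of 12, NAAT1 (2.07) and dmGlut (1.25), and lower in 6, with a median of -0.99. The peptide transporter gene yin had 5.88, 4.0 and 5.01 in midgut and 10.72, 10.91 and 10.50 in whole fly, a difference of -5.75. Eaat2 (-4.55), a glutamate transporter of the nervous system, JhI-21 (-3.24), mnd (-2.43), gb (-1.91) and tadr (-1.79) followed. Of the metal-binding proteins, the metallothioneins MtnD (3.06), MtnB (2.80) and MtnC (1.05) and the ferritin light chain Fer2LCH (1.02) were higher, and the transferrins Tsf2 (-3.06) and Tsf1 (-2.62) were lower, among 10 measured with a median of 0.56.

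The vacuolar ATPase pumps protons across membranes and serves acidification of the gut lumen and of organelles. In midgut 14 of its 29 measured genes were higher and 3 were lower, with a median of 0.71. The largest increases were in a pair of genes for subunit a of its membrane part, Vha100-4 (3.26) and Vha100-5 (2.94), followed by ATP6AP2 (1.34), Vha36-1 (1.28), VhaPPA1-1 (1.18) and Vha14-1 (1.18). Vha100-4 had 9.22, 8.74 and 8.71 in midgut and 5.58, 5.07 and 6.25 in whole fly (SE 0.28, limma adjusted p = 1.4e-05). The lower members were VhaM9.7-a (-1.80), Vha36-3 (-1.61) and Vha100-1 (-1.16), so paralogs of 1 subunit ran in opposite directions.

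Under every scaling, few genes of the respiratory chain, glycolysis and the tricarboxylic acid cycle were called. None of 31 respiratory chain and ATP synthase genes was called under every scaling, with differences of -0.50 to 0.58 and a median of 0.14 that changed sign under quantile normalization. Increases of that size could not have been called, since the smallest increase called under every scaling was 0.75. On the deposited values alone limma called 9 of them higher and 2 lower, against 16.4% and 49.5% of all named genes. Glycolysis had Hex-C (0.83), a hexokinase, higher and Pgi (-0.98) lower among 10, with a median of -0.70. On the deposited values alone limma called 8 of the 10 lower and 1 higher. Of 13 genes listed under the tricarboxylic acid cycle only Idh (1.25) was called, a NADP-dependent isocitrate dehydrogenase and not the NAD-dependent form. The list's median of -0.13 changed sign under median centring. The other 12 had differences of -0.74 to 0.70 (ScsbetaG, named after its value was seen). On the deposited values alone limma called 3 of the 13 higher and 4 lower. Genes of fat synthesis and lipoprotein assembly were lower in 7 of 17 and higher in 3, with a median of -1.02. The fatty acid synthases FASN3 (-5.09), FASN2 (-3.19) and FASN1 (-2.33), SCAP (-2.30), the lipid transfer protein Mtp (-1.74) and acetyl-CoA carboxylase ACC (-1.41) were lower, whereas Dgat2 (1.77), Gpat4 (1.53) and Lpin (0.98), which act on glycerolipids, were higher. In fat storage and breakdown, the peroxisomal oxidases Acox57D-d (1.58) and Acox57D-p (1.06) and the carnitine palmitoyltransferase whd (1.26) were higher and the lipid droplet protein Lsd-2 (-1.15) was lower, of 9 measured with a median of 0.31. The call of whd was lost without any 1 of whole fly replicates 1 to 3 and midgut replicates 1 and 2 (limma adjusted p of 0.0544 to 0.0908) and with a trended robust prior (0.0982). Its arrays read 8.46, 9.56 and 7.52 in midgut and 7.43, 7.26 and 7.09 in whole fly, and its difference was 0.74 without midgut replicate 2.

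Detoxification families held genes called in both directions, more of them higher. Cytochrome P450s were higher in 36 of 75 and lower in 9, with a median of 0.56. Cyp4e3 (3.51), Cyp6a18 (3.42), Cyp9b2 (3.29), Cyp6a14 (3.02), Cyp4d14 (3.0) and Cyp12c1 (2.62) were the largest increases. The largest decreases were Cyp6a19 (-5.52), Cyp4g1 (-3.33), which makes cuticular hydrocarbons in oenocytes, and Cyp313a1 (-3.32). Glutathione transferases were higher in 13 of 34 and lower in 6, with a median of 0.29. GstD5 had 6.80, 5.56 and 7.71 in midgut and 2.63, 2.38 and 3.02 in whole fly, a difference of 4.01, and its whole fly values lie near the level of the male genes. GstE5 (3.60), GstE3 (3.47), GstD2 (3.23), GstE10 (2.91) and GstD10 (2.82) followed, while GstD3 (-3.24), GstO1 (-2.84) and GstE4 (-1.96) were lower.

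**Figure D4:**
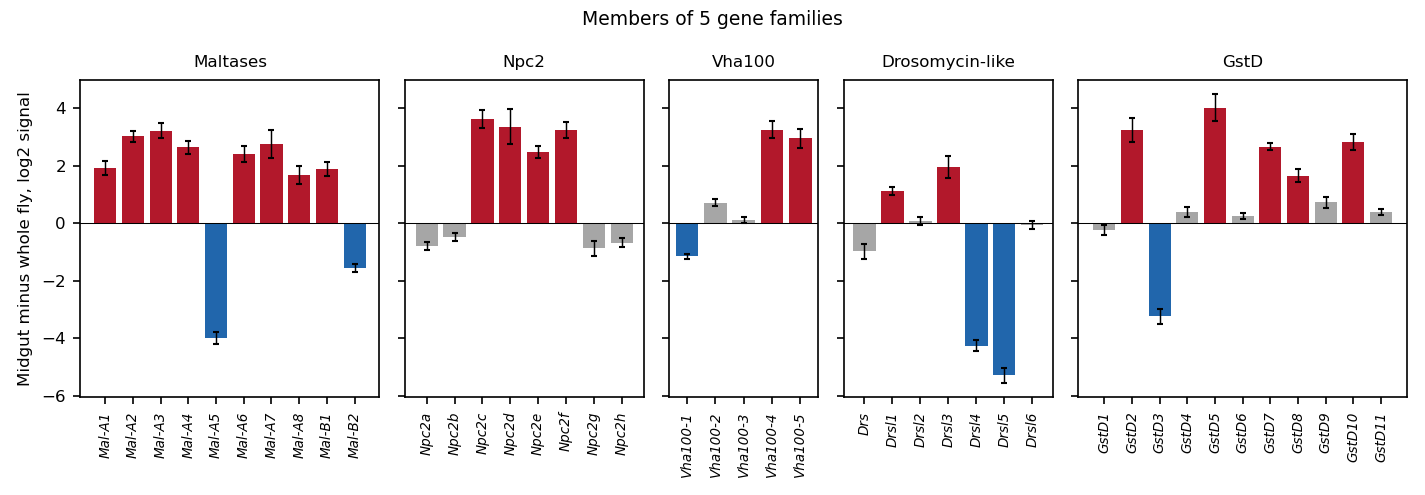
Difference of midgut minus whole fly in log2 signal for every measured member of 5 gene families, with the standard error from limma as error bars. Red bars are called higher and blue bars lower under all 4 scalings, and grey bars are not. Each family other than Npc2 holds members called in both directions.

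Of 13 genes of peptidoglycan recognition and the Imd pathway, which responds to bacterial peptidoglycan, 5 were higher and none lower, with a median of 0.37. They were the amidases PGRP-SC2 (2.24) and PGRP-LB (2.05), which degrade peptidoglycan, the pathway inhibitor pirk (1.83), PGRP-LA (1.14) and PGRP-LF (1.04). Over 12 genes of antimicrobial peptides the median was 0.01, with Drsl3 (1.94) and Drsl1 (1.11) higher and Drsl5 (-5.29) and Drsl4 (-4.25) lower. That median turned negative after centring on the hybridisation controls. Among 10 enzymes of reactive oxygen, whose median of -0.38 changed sign under median centring, the NADPH oxidases Duox (-3.57) and Nox (-1.97) were lower and the peroxiredoxin Prx6c (1.39) higher. Duox had 3.83, 3.81 and 3.86 in midgut and 7.29, 7.72 and 7.19 in whole fly (SE 0.15, limma adjusted p = 3.22e-07), and neither group overlapped the other.

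Transcription factors known for the midgut were not uniformly higher in it. Of 18 measured, 6 were higher and 3 lower, with a median of -0.21 whose sign changed under median centring and quantile normalization. nub, an enterocyte POU factor, had 10.44, 10.19 and 10.20 in midgut and 7.03, 6.20 and 7.22 in whole fly, a difference of 3.46 (SE 0.24, limma adjusted p = 4.27e-06). exex (3.13) and Ptx1 (2.64), homeobox factors of midgut regions, the endodermal GATA factor GATAe (2.34), pdm2, the paralog of nub, with 1.79, and dve (1.70), which acts in copper cells, were also higher. The lower factors were srp (-3.18), a GATA factor of fat body and blood cells, ems (-1.37) and pnr (-0.93). Optix (-0.74), cad (-0.70), grn (-0.68), Hnf4 (-0.64), zfh2 (-0.61), Fer1 (-0.31), tsh (-0.12), cbt (0.16) and Ets21C (0.32) were not called under every scaling. Of these, Optix, cad, grn, Hnf4 and zfh2 were called lower as deposited. tsh and Fer1, neither called as deposited, turned higher and were called after median centring (0.50 and 0.30, limma adjusted p of 0.00487 and 0.0421), as was tsh after quantile normalization (0.96, 0.000431).

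Genes of enteroendocrine cells and of progenitors were higher in part. Enteroendocrine genes were higher in 5 of 14 and lower in 2, with a median near 0 that was 0.61 after median centring and 0.74 after quantile normalization. The peptide hormone gene AstC had 9.45, 9.61 and 9.39 in midgut and 7.15, 6.76 and 7.57 in whole fly, a difference of 2.32. NPF (2.01), CCHa1 (1.60), CCHa2 (1.12) and the factor tap (0.90) were higher too, whereas amon (-2.26), which processes neuropeptides, and pros (-1.72) were lower, and Dh31 differed by 0.05. Several of these genes are also known from neurons of the brain. All values of tap lay near the level of the male genes. They were 2.99, 3.03 and 2.61 in midgut and 2.23, 1.73 and 1.97 in whole fly. Of 14 genes of progenitors and Notch signalling 4 were higher and mam (-1.57), a Notch coactivator, was lower, with a median of 0.33. esg, the Snail-type factor that marks progenitors, had 7.77, 7.76 and 7.78 in midgut and 4.93, 4.21 and 4.96 in whole fly, a difference of 3.07. Sox100B (2.86), E(spl)malpha-BFM (2.08) and E(spl)m3-HLH (0.92) were higher, and Sox21a differed by 0.46, which was not called under every scaling.

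Most genes of the proteasome, which degrades proteins tagged with ubiquitin, were lower in midgut. By the rule above 19 of 25 measured genes were lower and none was higher, with a median of -1.03. Rpn2 (-1.55), Prosalpha7 (-1.37), Rpn5 (-1.32), Prosbeta3 (-1.29), Rpn6 (-1.16) and Rpn1 (-1.10) were the largest. Cytosolic ribosomal proteins had differences of -0.89 (RpS19b, named after its value was seen) to -0.12 except for RpS5b, a paralog enriched in the ovary, which had 7.70, 4.83 and 5.97 in midgut and 12.64, 12.69 and 12.57 in whole fly, a difference of -6.47, with midgut replicate 1 the highest. On the deposited values alone limma called 21 of 32 measured ribosomal genes lower, against 49.5% of all named genes. In the secretory pathway and endoplasmic reticulum 1 of 17 genes was lower, PEK (-1.45), a stress kinase. The medians of these last groups, -0.29 and -0.37, changed sign under median centring.

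Many of the 15 largest decreases were in genes of the egg. They included orb (-7.94), osk (-7.93) and Marf1 (-7.60), which act on RNA in oocytes, the vitelline membrane genes Vm34Ca (-8.36), Vm32E (-7.89) and Vm26Aa (-7.56), and Cp15 (-7.55) and dec (-7.50) of the eggshell. Germline genes were lower in 18 of 23, with a median of -4.97, with bcd (-7.06), otu (-6.80) and swa (-6.50) next, and the germ plasm helicase vas differed by -1.83. The probe set of vas was dim, with 3.85, 4.14 and 3.53 in whole fly. In midgut it read 1.97, 1.93 and 2.13, near the level of the male genes, which limits the size of its difference. All 21 measured cell division genes were lower, with a median of -4.73. CycB3 (-6.91), CycB (-6.46), gnu (-6.42), fzy (-5.54), Mcm5 (-5.26) and Orc1 (-5.12) were the largest. Yolk and vitelline membrane genes were lower in 9 of 11, with a median of -4.33. The yolk proteins, which fat body and ovary make, differed far less, with Yp2 (-1.12) and Yp3 (-0.98) lower and Yp1, at 12.65, 12.49 and 12.59 in midgut and 13.20, 13.15 and 13.24 in whole fly, not called under every scaling (the 3 were named together after their values were seen). Chorion genes, with a median of -5.76, were lower in 6 of 7, namely Cp15 (-7.55), Cp19 (-6.88), Cp38 (-5.85), Cp16 (-5.76), Cp36 (-5.74) and Cp7Fc (-4.25). Cp36 lost its call without whole fly replicate 1 or 2 or midgut replicate 1 or 2 (limma adjusted p of 0.0504 to 0.0702), and Cp7Fc without any 1 of those or midgut replicate 3 (0.058 to 0.113). With a trended robust prior Cp38 (0.0541), Cp16 (0.0756), Cp36 (0.102) and Cp7Fc (0.139) lost their calls. Cp18 had 4.22, 4.53 and 4.38 in midgut and 8.85, 4.94 and 12.87 in whole fly, where its arrays spread widely, and was not called under every scaling. Cp19, Cp38, Cp16, Cp36 and Cp7Fc also spread widely there, with SDs of 3.03 to 3.65, and for Cp36 and Cp7Fc the groups overlapped. On the glucose diet Cp19 and Cp16 were not called (limma adjusted p of 0.0511 and 0.0674).

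Low but unequal signals of egg genes were seen in the midgut arrays. osk had 5.53, 2.43 and 2.69 in midgut and 11.42, 11.29 and 11.74 in whole fly, and Marf1 had 4.35, 2.21 and 2.42 in midgut and 10.52, 10.63 and 10.64 in whole fly, so midgut replicate 1 was the highest in both. Cp15 had 4.64, 4.18 and 6.82 in midgut, highest in replicate 3, and 13.29, 11.71 and 13.30 in whole fly. The differences without midgut replicate 1 were -8.92 for osk and -8.28 for Marf1. The part of RNA from other tissue in these midgut values was not tested.

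Genes of muscle, nerve and sense organs followed. Muscle contractile genes were lower in 15 of 22 and higher in 1, Mlc-c (1.08), a cytoplasmic myosin light chain, with a median of -1.97. The flight muscle genes Act88F (-7.20), TpnC4 (-7.14) and fln (-5.55) led, followed by TpnC41C (-5.33), Act79B (-4.06) and bt (-3.70). Act88F had 3.06, 3.02 and 3.03 in midgut and 10.82, 10.11 and 9.78 in whole fly. Neuronal genes were lower in 14 of 21, with cpx (-6.15), Snap25 (-5.50), futsch (-3.89), Gad1 (-3.82), cac (-3.33) and Vmat (-3.08), all of synapses or excitable cells. nSyb (-2.0) was lower as well, and elav, the pan-neuronal RNA-binding protein, differed by -1.23 and was not called under every scaling. Averaging the probe sets of each gene moved the neuronal median to -1.59, against -2.18, and the germline median to -3.96. Phototransduction genes, with a median of -3.33, were lower in 9 of 11, including the arrestins Arr2 (-8.49) and Arr1 (-7.07), trp (-4.55), inaC (-3.96), trpl (-3.67), rdgC (-3.33) and inaD (-2.93). Arr2 had 2.62, 2.69 and 3.05 in midgut and 11.50, 10.86 and 11.47 in whole fly (SE 0.20, limma adjusted p = 6.85e-08), and its midgut values lie near the level of the male genes. Odorant-binding proteins and receptors, with a median of -2.30, were lower in 19 of 33, led by Obp19d (-7.08), Obp44a (-5.55), Obp56e (-5.23), Obp19a (-4.95), Obp57c (-4.64) and Obp83b (-4.50). Of the remaining genes among the 15 largest decreases, Scp1, a calcium-binding protein gene, differed by -7.55, and CG34324, CG14645, CG4476 and CG8343 by -8.54 to -7.41.

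**Figure D5:**
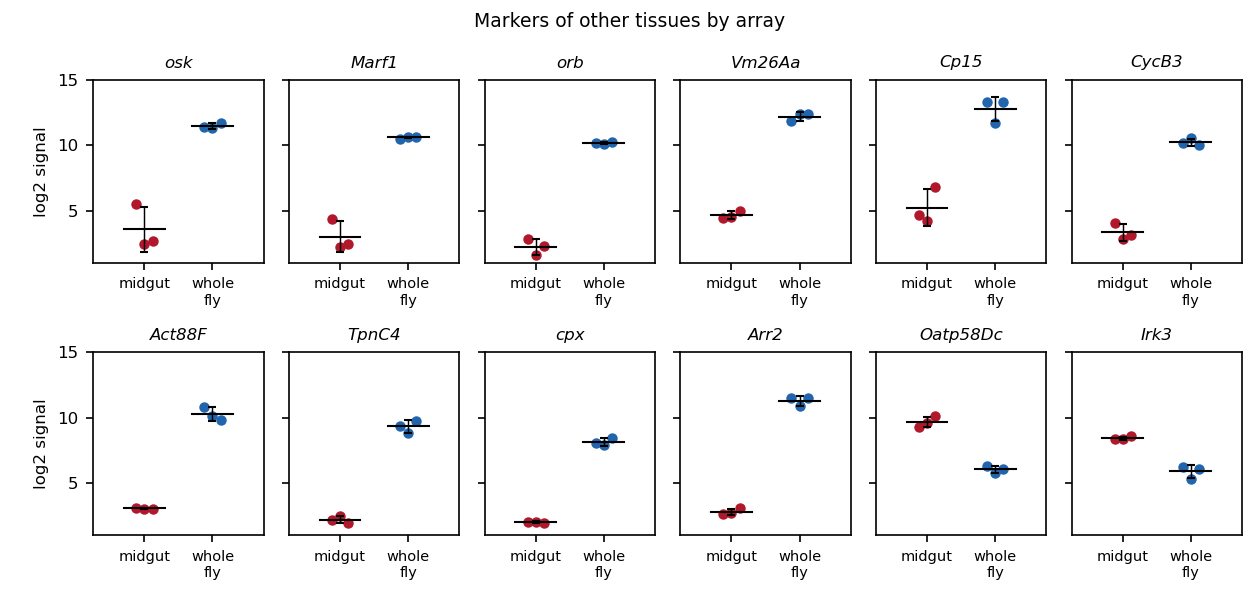
Log2 signal of 12 marker genes of other tissues in each midgut array (left, red) and each whole fly array (right, blue), with the mean and SD of the 3 arrays as bars. The egg, muscle, nerve and eye markers are lower in every midgut array than in any whole fly array, and the tubule genes Oatp58Dc and Irk3 are higher.

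Tissues of the body cavity gave a mixed picture. Of all named genes 28.2% were lower, and the counts of lower fat body, blood cell and cuticle genes lay near or below that share. Of 8 fat body genes, whose median was -0.08, Lsp2 (-4.13), a larval storage protein, and the iron carrier Tsf1 (-2.62) were lower, the lipocalin NLaz (2.06) was higher, and Fbp1 and fit differed by 0.11 and -1.34 without being called as deposited. Fbp1 was dim in all 6 arrays, with 3.34, 3.45 and 3.45 in midgut and 3.07, 3.63 and 3.22 in whole fly, so its difference says little. fit had 6.07, 5.89 and 6.67 in midgut and 9.15, 6.02 and 7.47 in whole fly, and its difference was -2.10 without whole fly replicate 2 (limma adjusted p = 0.00477). Blood cell genes, with a median of -1.17, were lower in 4 of 14, srp (-3.18), eater (-2.62), Hml (-2.24) and Sr-CI (-1.68), and NimC1 and Pxn differed by -1.91 and -1.25, which did not hold under every scaling. Basement membrane genes, with a median of -1.15, were lower in 5 of 13, Ppn (-2.47), the collagens Col4a1 (-2.30) and vkg (-1.78), the laminin LanA (-1.76) and SPARC (-1.15). Cuticle and pigment genes were lower in 7 of 35, with a median of -0.18, led by Cpr66D (-4.21), Cpr72Ec (-3.21), Ddc (-2.18), Cpr62Bb (-1.83), Cpr97Eb (-1.53) and obst-A (-1.37), and 1 was higher, the eye pigment transporter gene st (2.93). The medians of the fat body and the cuticle lists changed sign under median centring and quantile normalization. Hormones of brain and corpora cardiaca, with a median of -1.12, were lower in 8 of 17, among them FMRFa (-2.54), Akh (-2.45), Ilp2 (-2.30), Ilp7 (-2.19), Pdf (-1.97) and sNPF (-1.86). Clock genes split, with cry (2.67) and Clk (1.78) higher and cyc (-1.59), dco (-1.58) and cwo (-1.14) lower, of 9 measured with a median of -0.96. cry, the cryptochrome, had 7.04, 7.39 and 7.18 in midgut and 4.64, 4.37 and 4.61 in whole fly, while cyc, the partner of Clk, had 6.62, 6.64 and 6.62 in midgut and 8.16, 8.32 and 8.20 in whole fly.

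Genes known as markers of Malpighian tubules, the excretory organs that join the gut at the end of the midgut, were in part higher in the midgut samples. Of 13 measured, 8 were higher and 1 lower, with a median of 1.51. The organic anion transporters Oatp58Dc (3.62), Oatp58Da (3.29) and Oatp58Db (3.28), the potassium channels Irk3 (2.56) and Irk2 (2.36) and the alkaline phosphatase Alp4 (1.83) were the largest, and the aquaporin Prip (-1.90) was lower. Oatp58Dc had 9.28, 9.58 and 10.09 in midgut and 6.30, 5.74 and 6.06 in whole fly. The mean level of the list was 7.67, 7.68 and 7.97 in the midgut arrays and 6.48, 6.12 and 6.35 in the whole fly arrays. The tubule marker Uro was not measured, and the part of tubule tissue in the dissected midguts was not tested. Markers not measured by a probe set with 1 gene were, besides Uro, Amy-p, Npc1b, AstA, Tk, Dl, hdc, Myo31DF, Mhc, Syt1 and ninaE.

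In several places genes higher in midgut lay next to each other along a chromosome. In the RefSeq order of 11899 placed genes, 22 runs of at least 4 measured neighbours held only genes that were at least 2-fold higher, and 107 runs held only genes at least 2-fold lower. Of all named genes 8.36% were at least 2-fold higher and 27.6% at least 2-fold lower, so the 2 counts cannot be compared directly. How many runs those shares alone would give was not tested. The longest higher run had 9 genes with a median difference of 2.80, CG17477, CG31269, CG31265, CG17475, CG4053, CG31266, CG31267, CG5246 and CG5255, with 1 unmeasured gene inside. Next came 8 genes with a median of 2.99, CG11891, CG11878, CG10513, CG10514, CG11892, CG31300, CG31104 and CG13658. Another 8, with a median of 2.91, were CG5770, CG5767, CG34005, CG14495, Muc55B, CG10911, CG10912 and CG34386. A further run of 8 was made of trypsin genes alone, lambdaTry, kappaTry, zetaTry, etaTry, thetaTry, alphaTry, epsilonTry and betaTry, with a median of 2.75. A run of 7 genes, with a median of 1.83, was CG31098, CG31102, CG31097, CG31288, CG13659, CG31370 and CG31436. Shorter runs, picked out after their values were seen, were a run of 4 from Mal-A1 to Mal-A4 and a run of 6 with Oatp58Da, Oatp58Db, Oatp58Dc and dve. Neighbours of similar sequence can share probes, so runs of related genes are not independent measurements.

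For some genes the direction depended on the probe set. Of 1094 genes with more than 1 probe set, 7 had probe sets called under every scaling in opposite directions, CG30109, Hk, Sarm, hts, scrib, smash and spir (named after their values were seen). hts, an adducin gene, had a probe set higher by 0.93 and another lower at -5.31. The lower one read 3.38, 2.25 and 2.62 in midgut and 8.12, 8.11 and 7.94 in whole fly. scrib, a polarity gene counted above in the pleated septate junction list, had 3 probe sets at 2.07, 1.47 and 1.38 and another at -4.46, which read 2.35, 2.27 and 2.28 in midgut and 6.77, 6.96 and 6.54 in whole fly. Its probe set with the highest mean, used for the list, was at -1.27 and was not called under every scaling.

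Most of the tissue differences were also present in the arrays of glucose-fed flies, which the comparison does not use. Among the 5120 probe sets called under every scaling and at least 2-fold apart on the unmodified diet (6.13% of 18769 higher and 21.2% lower), 5117 had the same sign on the glucose diet, and 5049 (98.61%) were also called there by limma. Of the 339 genes picked out by name for this text, 310 were called under every scaling. Among these 310, 308 had the same sign on glucose and 10 were not called there. LysX differed by 3.46 on the unmodified diet and by -0.18 on glucose (limma adjusted p = 0.826), and CCHa2 by 1.12 and -0.0053 (0.988). LysP differed by 0.90 and 0.06 (0.809), and for none of the 3 was the difference between diets itself called (interaction adjusted p of 0.165 to 0.357). On the glucose diet 50.4% of all probe sets were called. Across 18769 probe sets the differences of the diets correlated at 0.961, a description over probe sets, which are not independent replicates. In a fit over all 12 arrays the tissue difference itself differed between diets at 8 probe sets (0.0426%), each lower in midgut on both diets, with 2833 at an unadjusted p under 0.05.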

How the data were processed

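RNA was isolated with Trizol, and 100 ng of it was labelled with a 3' IVT kit for Affymetrix arrays, per the labels' protocols. The deposited values are log2 signals, 1 per probe set and array, made with Affymetrix Expression Console per the submitters' processing notes. Not given in the sources used here are its version, the summarisation algorithm and any scaling between tissues. A log2 scale follows from the range of the values over the 6 arrays, 1.47 to 14.12. There are no read depths, so the number of arrays limits the precision.

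From 18769 probe sets, with 183 Affymetrix controls left out, the difference of midgut minus whole fly was tested with lmFit and eBayes of limma (3.58.1, under R 4.3.3; two-sided, no covariate, Benjamini-Hochberg over all probe sets, adjusted p under 0.05). Alternatives were 3 scalings (array median, quantile, hybridisation controls), leaving out the dimmest 40%, a trended robust prior, a replicate block, a fit over 12 arrays and leaving out each array. The smallest p of an exact permutation test in a group size of 3 is 0.1. The fits were tested on simulated data with few changed probe sets and no shift between whole arrays. That test cannot bear on how the calls depend on scaling.

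Genes come from the platform annotation: 13647 probe sets carry 1 symbol, 402 several and 4720 none listed. For 103 named probe sets the RefSeq table, used for names and gene order, lacks the identifier. Within a group at most 0.0213% of probe sets had identical values in a pair of arrays, so no array was counted as a duplicate.

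The comparison and the 48 gene lists were chosen with earlier results of these data known, so lists are described by counts and medians without a test. Genes picked out by name include the 15 largest non-overlapping differences in each direction called under every scaling. They also include up to 6 members of a list in its main direction and 3 in the other, and every member of lists of 6 or fewer. Cell type markers, midgut transcription factors and genes of the 5 longest runs of neighbours that were higher were also picked out. No sequences are printed. Same-numbered midgut and whole fly arrays deviated from their group means with correlations of -0.0471, -0.0399 and 0.0692, so the numbers were not taken to pair the samples.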

Additional observations from a re-analysis of the deposited data

Results flagged for a closer look

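The difference of midgut minus whole fly itself differed between the glucose diet and the unmodified diet at 8 probe sets, by a limma interaction term over all 12 arrays. Each had an adjusted p of 0.05 to the second decimal, just inside the threshold, among 2833 probe sets with an unadjusted p under 0.05, and all 8 were lower in midgut on both diets. The glucose contrast minus the unmodified contrast was 1.52 for cno, an adherens junction scaffold, whose means were 3.65 in midgut and 6.01 in whole fly on glucose, and 3.50 in midgut and 7.38 in whole fly on the unmodified diet. Its midgut means thus differed less between diets than its whole fly means. The same quantity was 1.25 for jing, 1.21 for CG2186, 1.13 for ana3, 1.06 for rec and -1.02 for flap. For the other 2, probe sets with no gene listed, it was 1.28 and 1.11. On glucose and on the unmodified diet the midgut means were 2.62 and 2.37 for jing and 2.15 and 2.05 for rec. They were 2.82 and 3.02 for flap and 3.20 and 3.13 for ana3, against 5.23 and 5.19 for CG2186. Apart from those of CG2186, these means lie near the level of the male genes, where differences are compressed. cno has 2 probe sets, and its other one was not among the 8.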

How the results depend on the processing

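The counts of calls depended on the scaling between arrays, and the cause was not tested. As deposited, limma called 10218 probe sets, 2714 higher and 7504 lower in midgut, with 1150 higher and 4824 lower by at least 2-fold. Median centring gave 16015, 11062 and 4953, with 2415 and 3047 by at least 2-fold. Quantile normalization gave 5562 higher and 4840 lower, with 2383 and 2653, and centring on hybridisation controls gave 1442 higher. The other counts under that centring, and all 5 under the filter on dim probe sets, the trended prior, the fit over 12 arrays and each left-out array, stayed within 1.5 times. The replicate block called 9928, a pairing that the deviations did not bear out (-0.0471, -0.0399 and 0.0692). Of the 339 genes picked out by name it changed the call of LysP alone. Among these 339, genes called as deposited that reversed under a scaling were baz (0.10 after median centring, 0.62 after quantile normalization), Npc2b (0.14 and 0.01), Npc2h (0.45 after quantile normalization) and zfh2 (0.01 after median centring). Not called as deposited, tsh turned to 0.50 after median centring and 0.96 after quantile normalization, and Fer1 to 0.30 after median centring, with calls. Without 1 array 9 of the 339 genes lost a call, of which 5 had held under every scaling, and with the trended prior 8 of the 339 did. Of 48 list medians, 9 changed sign under median centring, 6 under quantile normalization, 2 under hybridisation control centring and at most 2 without any 1 array. Signals near the level of the male genes limit how far a decrease can be read, and no detection calls were used.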
